A study of Mus musculus with 6 samples.

Results

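The genes described here carry fatty acids from the blood into the mitochondria of skeletal muscle. The group was chosen by name, with earlier results of these data known, as were the gene lists followed below. Counts over the group and the lists are therefore descriptions and not tests. The group comprises 10 genes: Lpl, Cd36, Slc27a1, Slc27a4, Fabp3, Acsl1, Cpt1b, Cpt2, Slc25a20 and Crat. A probe set that the platform annotation assigns to that gene alone was found for 8 of them, out of 19938 genes named and 16487 tested. Cpt1b, the muscle carnitine palmitoyltransferase of the outer mitochondrial membrane, had 1 probe set that also carries a second symbol, and Acsl1, the main muscle acyl-CoA synthetase, had 0 named probe sets, so both were left out. All 8 measured genes passed the filter on dim probe sets.

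Gastrocnemius, a calf muscle, was profiled on Affymetrix whole-transcript arrays with 1 array per sample. The 3 Sparc knockout samples are labelled as a "homogenous SPARC knockout" and the 3 wild type samples as wild type. All came from male mice at 12 weeks of age, and both genotypes carry the strain label B6;129S-Sparctm1Hwe/J, a mixed B6 and 129S background. SPARC is a secreted glycoprotein that binds collagen, and the study's title concerns glucose tolerance and AMP-activated protein kinase. The labels name neither litters nor pools, so the p-values measure the spread between these samples, each taken as 1 mouse. In whole muscle, fewer cells of a type cannot be told apart from less RNA per cell.

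Muscle fibres burn fatty acids that reach them as triglyceride in lipoproteins or as free fatty acid on albumin. Lipoprotein lipase on the capillary wall releases the acids, and CD36 and the fatty acid transport proteins take them across the cell membrane. Inside the fibre, FABP3 binds them, acyl-CoA synthetases activate them, and the carnitine shuttle takes the acyl groups through the inner mitochondrial membrane for beta-oxidation. Many of these genes are known targets of PPAR and RXR nuclear receptors and of oestrogen-related receptors in muscle.

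The promoters of 4 members are shown because 3 of these genes had the smallest p-values of the group and Cd36 had the highest change. Each window runs from 250 bases before to 50 bases after a gene start of RefSeq on build GRCm38.p6 and is written 5′ to 3′ on the gene's strand. They are Slc27a1 at chr8:71568621-71568920 (plus strand, the first of 3 starts), Cpt2 at chr4:107923540-107923839 (minus strand), Slc25a20 at chr9:108661886-108662185 (plus strand) and Cd36 at chr5:17835847-17836146 (minus strand). Capitals mark a match to AGGTCA, the core that PPAR, RXR and oestrogen-related receptors share, read on either strand.
Slc27a1: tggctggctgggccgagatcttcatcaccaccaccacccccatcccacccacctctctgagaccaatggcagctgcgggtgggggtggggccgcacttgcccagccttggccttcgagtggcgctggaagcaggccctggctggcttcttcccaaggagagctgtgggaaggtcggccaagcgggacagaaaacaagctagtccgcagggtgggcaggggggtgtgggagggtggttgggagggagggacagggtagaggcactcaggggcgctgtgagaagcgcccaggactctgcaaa
Cpt2: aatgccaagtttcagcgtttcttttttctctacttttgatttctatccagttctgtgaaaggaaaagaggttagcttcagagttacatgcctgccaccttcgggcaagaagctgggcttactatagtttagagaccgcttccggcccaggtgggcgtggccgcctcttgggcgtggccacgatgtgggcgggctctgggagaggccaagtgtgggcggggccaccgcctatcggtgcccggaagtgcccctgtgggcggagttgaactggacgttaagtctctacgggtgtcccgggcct
Slc25a20: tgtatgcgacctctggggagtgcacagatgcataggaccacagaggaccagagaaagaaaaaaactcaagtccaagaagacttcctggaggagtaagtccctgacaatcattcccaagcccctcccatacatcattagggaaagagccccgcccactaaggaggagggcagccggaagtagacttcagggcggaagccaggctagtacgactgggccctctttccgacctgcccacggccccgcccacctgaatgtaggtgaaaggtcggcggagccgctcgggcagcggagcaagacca
Cd36: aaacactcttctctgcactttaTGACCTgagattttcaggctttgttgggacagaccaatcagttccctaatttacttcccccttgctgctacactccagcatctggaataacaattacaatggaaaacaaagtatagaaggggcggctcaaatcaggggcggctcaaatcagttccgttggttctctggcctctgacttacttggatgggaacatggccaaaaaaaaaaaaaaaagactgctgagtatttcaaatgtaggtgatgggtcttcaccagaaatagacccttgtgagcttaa

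RefSeq windows were found for 7 of the 10 genes, 10 windows in all. AGGTCA occurred in 1 of them, that of Cd36, where it begins at position -228 from the start, and in 16.3% of all 32851 mouse windows. A pair of AGGTCA in the same direction with 1 base between them, the strict PPAR element, occurred in 0 of the 10 windows and in 0.0396% of all windows. TCAAGGTCA, the oestrogen-related receptor element, which contains AGGTCA, occurred in 0 of the 10 and in 0.423% of all windows. A missing match says only that these letters are not in this window. The 3 windows of lower genes printed above held 10, 17 and 13 CpG dinucleotides in Slc27a1, Cpt2 and Slc25a20, that of Fabp3 held 22 and that of Slc27a4 held 14. The window of Cd36 held 3, against a median of 7 over all windows.

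Sparc itself served as the check of the labels. Its log2 intensity was 6.74, 6.46 and 5.83 in knockout arrays 1, 2 and 3, against 11.80, 11.73 and 11.87 in wild type arrays 1, 2 and 3. Genotypes were compared over all 16487 genes with limma, and a gene was called at a Benjamini-Hochberg adjusted p under 0.05. This called 164 genes, or 0.995% of those tested, with 0.673% called lower and 0.321% called higher. The knockout arrays varied more than the wild type arrays, the median SD of log2 intensity per gene being 0.163 in knockouts and 0.0912 in wild types. The 8 muscle fibre markers checked, among them Acta1, Ckm and Ttn, had log2 intensities of 11.55 or above in every array.

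Of the 8 measured genes, 1 was called, Slc27a1, which fell in knockout muscle, and 0 were called higher by limma. At an unadjusted p under 0.05, 4 were lower and 0 higher. Over all genes 18.4% had such a p, 10.3% lower and 8.16% higher. These 4 were Slc27a1, Cpt2, Slc25a20 and Fabp3, and in each of them the highest knockout value was below the lowest wild type value. Such a separation, with the knockouts lower, was seen in 13.8% of all genes tested, and separation in either direction in 25%. The median log2 change of the 8 genes was -0.26, with 5 negative and 3 positive, against a median of 5.3e-05 over all genes.

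**Figure D1:**
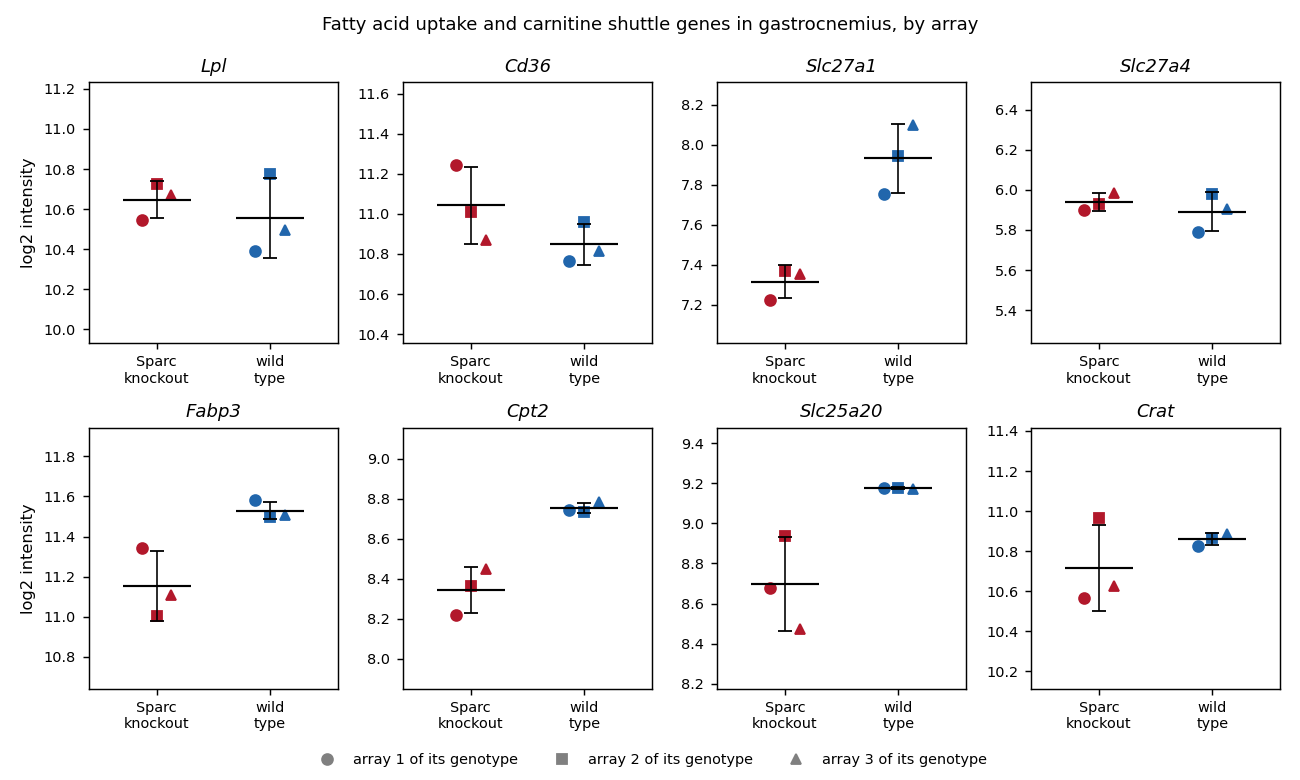
Log2 intensity of the 8 measured genes in each array, knockout left and wild type right in each panel. Points are arrays, horizontal lines are means and bars are SDs (n = 3 arrays), and every panel spans the same range. The knockout points lie below all wild type points in Slc27a1, Fabp3, Cpt2 and Slc25a20, and overlap them in Lpl, Cd36, Slc27a4 and Crat.

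Lpl encodes lipoprotein lipase, which is made by the fibres and works on the capillary lining. Its log2 intensity was 10.55, 10.72 and 10.67 in knockout arrays 1, 2 and 3, against 10.39, 10.78 and 10.50 in wild type arrays 1, 2 and 3. The groups overlapped, with the highest and the lowest value both in wild type arrays. The change was 0.09 ± 0.11 (SE; limma adjusted p = 0.734), with a 95% interval of -0.17 to 0.35 that holds zero. It was 0.010 without wild type array 1 and 0.20 without wild type array 2.

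Cd36 encodes the scavenger receptor and fatty acid translocase of fibres, endothelium, fat cells and macrophages. It read 11.25, 11.01 and 10.87 in knockout arrays 1, 2 and 3, against 10.77, 10.96 and 10.82 in wild type arrays 1, 2 and 3. Knockout array 1 was the highest of the 6, and knockout array 3 lay among the wild types. The change of 0.19 ± 0.11 (SE; limma adjusted p = 0.403) had a 95% interval of -0.06 to 0.45, or 0.958-fold to 1.37-fold. A fall to below 0.958-fold therefore lies outside that interval, and a rise of up to 1.37-fold within it.

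Slc27a1 encodes FATP1, the insulin-responsive fatty acid transport protein of muscle and fat, which also has acyl-CoA synthetase activity. Probe set 10572647 read 7.22, 7.37 and 7.36 in knockout arrays 1, 2 and 3, against 7.76, 7.94 and 8.10 in wild type arrays 1, 2 and 3. A gap of 0.38 separated the highest knockout from the lowest wild type value, and the knockouts lay closer together than the wild types. Expression averaged 7.32 ± 0.081 in knockouts and 7.93 ± 0.17 in wild types (SD, n = 3 each), a change of -0.62 ± 0.11 (SE; limma adjusted p = 0.0463) or 1.53-fold lower. Its p ranked 154 among the 164 called genes, and 176 of all genes tested had a lower change. The call was lost without knockout array 1 or 3 (adjusted p = 0.0660 and 0.0789) and without wild type array 1, 2 or 3 (adjusted p = 0.0982, 0.217 and 0.227), and held without knockout array 2 (adjusted p = 0.0307). It was also lost after median centring, after a second quantile normalization and without the variance trend (adjusted p = 0.0562, 0.0603 and 0.0535).

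Slc27a4 encodes FATP4, a second member of that protein family found in muscle and in many other tissues. It read 5.90, 5.93 and 5.99 in knockout arrays 1, 2 and 3, against 5.79, 5.98 and 5.90 in wild type arrays 1, 2 and 3. All 6 arrays lay within a narrow band, and the change was 0.05 ± 0.09 (SE; limma adjusted p = 0.843; 95% interval -0.17 to 0.27). Within an array, log2 Slc27a1 minus log2 Slc27a4 averaged 1.38 ± 0.060 in knockouts and 2.04 ± 0.13 in wild types (SD, n = 3 each). The 2 genes therefore differed in their change by -0.66, with all 3 knockouts below all 3 wild types. The exact two-sided permutation p was 0.1, the smallest that 3 against 3 arrays allow, and this pair was chosen after the values were seen.

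Fabp3 encodes the heart-type fatty acid binding protein, which carries fatty acids through the cytosol of oxidative muscle. It read 11.34, 11.00 and 11.11 in knockout arrays 1, 2 and 3, against 11.58, 11.50 and 11.51 in wild type arrays 1, 2 and 3. The groups did not overlap, and the knockouts spread over 0.34 where the wild types spread over 0.08. The change was -0.38 ± 0.10 (SE; limma adjusted p = 0.113), with a 95% interval of -0.61 to -0.15 on the log2 scale, so it was not called over all genes. A second probe set assigned to Fabp3, 10371502, gave -0.37, and its arrays stood in the same order within each genotype. RefSeq also lists a Fabp3 pseudogene, Fabp3-ps1, and whether it shares signal with either probe set was not tested.

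Cpt2 encodes carnitine palmitoyltransferase 2, which regenerates acyl-CoA on the inner face of the inner mitochondrial membrane. It read 8.22, 8.36 and 8.45 in knockout arrays 1, 2 and 3, against 8.74, 8.73 and 8.78 in wild type arrays 1, 2 and 3. Every knockout lay at least 0.28 below every wild type. The change was -0.41 ± 0.09 (SE), or 1.33-fold lower, with a 95% interval of -0.62 to -0.20 and a limma adjusted p of 0.0818, so it was not called.

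Slc25a20 encodes the carnitine-acylcarnitine translocase, which exchanges acylcarnitine for free carnitine across the inner membrane. It read 8.68, 8.94 and 8.47 in knockout arrays 1, 2 and 3, against 9.18, 9.18 and 9.17 in wild type arrays 1, 2 and 3. The wild type values spanned 0.0070 and the knockout values 0.47, the widest span of any measured member within a genotype. The change was -0.48 ± 0.12 (SE; limma adjusted p = 0.102), 1.39-fold lower, with a 95% interval of -0.76 to -0.20. Knockout array 2 was the closest to the wild type values, and without it the change was -0.60 and passed the threshold (adjusted p = 0.0183).

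Crat encodes carnitine acetyltransferase, which buffers mitochondrial acetyl-CoA as acetylcarnitine. It read 10.56, 10.96 and 10.62 in knockout arrays 1, 2 and 3, against 10.83, 10.87 and 10.89 in wild type arrays 1, 2 and 3. Knockout arrays 1 and 3 lay below all wild types and knockout array 2 above them all. The change was -0.14 ± 0.11 (SE; limma adjusted p = 0.562; 95% interval -0.40 to 0.12). Without knockout array 1, 2 or 3 it was -0.066, -0.27 and -0.096 (adjusted p = 0.766, 0.0788 and 0.755), so the value rests on which knockout is included.

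**Figure D2:**
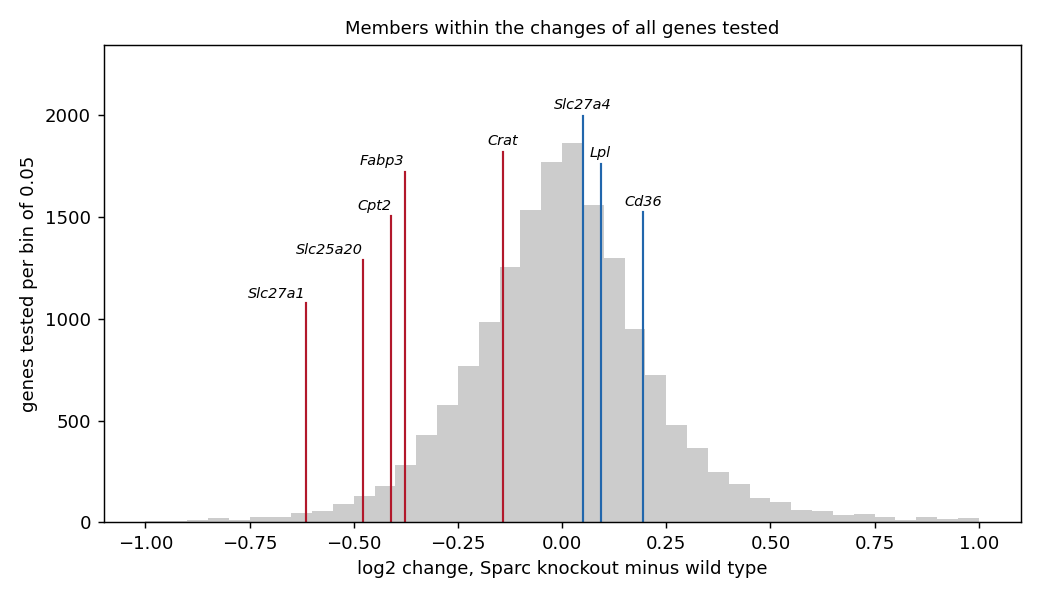
Number of genes tested in each bin of log2 change, knockout minus wild type, as grey bars, with a line at the change of each measured member (red negative, blue positive; line heights carry no value). Bins are 0.05 wide, and 106 genes beyond 1 in either direction are not drawn. Slc27a1, Slc25a20, Cpt2 and Fabp3 lie in the lower tail, and Crat, Slc27a4, Lpl and Cd36 lie in the body of the distribution.

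Among all genes tested, 1.07% had a change as low as that of Slc27a1 or lower. The shares were 2.34% for Slc25a20, 3.68% for Cpt2 and 4.63% for Fabp3. They were 23.5% for Crat, 61.1% for Slc27a4, 69.4% for Lpl and 83.9% for Cd36. Across the 8 genes, the median difference from the wild type mean was -0.24, -0.10 and -0.27 in knockout arrays 1, 2 and 3, against -0.06, 0.01 and 0.00384 in wild type arrays 1, 2 and 3. Knockout array 2 thus lay closest to the wild types in the group as a whole, although it held the lowest Fabp3 value.

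The other genes of the route were followed in 5 lists. Of 13 tested partners of lipoprotein lipase and other uptake genes, 0 were called, 1 was lower and 0 higher at an unadjusted p under 0.05 by limma, and the median change was -0.02. The smallest p-values were those of Vldlr, the very low density lipoprotein receptor, at -0.43 ± 0.19 (SE; adjusted p = 0.271), of Gpihbp1, which anchors lipoprotein lipase on the capillary wall, at -0.19 ± 0.11 (SE; adjusted p = 0.405), and of Slc27a2, at -0.20 ± 0.12 (SE; adjusted p = 0.452). Vldlr read 9.59, 10.32 and 9.57 in knockout arrays 1, 2 and 3, against 10.18, 10.24 and 10.36 in wild type arrays 1, 2 and 3, so knockout array 2 lay among the wild types. Without that array the change of Vldlr was -0.68 and passed the threshold (limma adjusted p = 0.00961).

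Of 13 tested acyl-binding, acyl-CoA synthetase and thioesterase genes, 1 was called lower and 0 higher, with 8 negative and 5 positive and a median of -0.06. Dbi, the acyl-CoA binding protein, fell: it read 9.28, 9.29 and 9.34 in knockout arrays 1, 2 and 3, against 9.80, 9.74 and 9.83 in wild type arrays 1, 2 and 3. The genotypes were far apart relative to their spread, with a change of -0.49 ± 0.08 (SE; limma adjusted p = 0.0366). The call was lost without knockout array 1 or 3 (adjusted p = 0.0516 and 0.0567) and without wild type array 1, 2 or 3 (adjusted p = 0.184, 0.185 and 0.227), and also after median centring, after a second quantile normalization and without the variance trend (adjusted p = 0.0590, 0.0544 and 0.0504). The replicate block, whose numbers were not taken as pairs, lost it too (adjusted p = 0.0794). At an unadjusted p under 0.05 the list had 2 lower, Dbi and the thioesterase Acot7 at -0.42 ± 0.10 (SE; adjusted p = 0.0854), and 1 higher, Fabp5, the epidermal-type fatty acid binding protein of macrophages and endothelium, at 0.48 ± 0.15 (SE; adjusted p = 0.142). Acot7 and Fabp5 were named after their values were seen. Fabp5 read 6.98, 6.67 and 6.40 in knockout arrays 1, 2 and 3, against 6.30, 6.19 and 6.13 in wild type arrays 1, 2 and 3, so that all 3 knockouts lay above all 3 wild types, opposite in sign to Fabp3.

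Of 11 tested genes of carnitine supply and malonyl-CoA control, 0 were called, with 8 negative and 3 positive and a median of -0.17. At an unadjusted p under 0.05 by limma, 1 was lower and 1 higher. The lower was Mlycd, malonyl-CoA decarboxylase, which removes the inhibitor of CPT1. It read 6.97, 7.06 and 6.82 in knockout arrays 1, 2 and 3, against 7.51, 7.51 and 7.37 in wild type arrays 1, 2 and 3, with no overlap, at -0.52 ± 0.10 (SE; adjusted p = 0.0583). Bbox1, the last enzyme of carnitine synthesis, was at 0.37 ± 0.16 (SE; adjusted p = 0.264), with values near the dim filter of 3.90. Slc22a5, the carnitine transporter OCTN2, was at -0.19 ± 0.10 (SE; adjusted p = 0.342).

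The 16 genes of the beta-oxidation list, Etfa, Etfb and Etfdh included, act downstream of the shuttle. All 16 had negative changes, with a median of -0.22, and in 11 of them the knockouts lay below all wild types. By limma 1 was called lower and 0 higher, and an unadjusted p under 0.05 was found in 8, none of them higher. Over all genes tested, 50% had negative changes, 13.8% were lower without overlap and 10.3% were lower at such a p. Eci1, the enoyl-CoA isomerase for unsaturated fatty acids, fell: it read 8.52, 8.62 and 8.44 in knockout arrays 1, 2 and 3, against 9.06, 9.06 and 8.99 in wild type arrays 1, 2 and 3. Its change was -0.51 ± 0.09 (SE; limma adjusted p = 0.0426). The call was lost without knockout array 1 or 3 (adjusted p = 0.0564 and 0.0797) and without wild type array 1, 2 or 3 (adjusted p = 0.194, 0.228 and 0.218), and also after median centring and without the variance trend (adjusted p = 0.0677 and 0.0534). It was lost with the replicate block as well (adjusted p = 0.0812).

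Among 17 tested regulators of fatty acid genes, 0 were called by limma, with 10 negative and 7 positive and a median of -0.09. At an unadjusted p under 0.05, 2 were lower and 1 higher. The lower were Rxrg and Rxra, which encode the RXR partners of PPARs. Rxrg read 8.36, 8.65 and 8.12 in knockout arrays 1, 2 and 3, against 9.15, 9.02 and 9.07 in wild type arrays 1, 2 and 3, a change of -0.71 ± 0.13 (SE; adjusted p = 0.0548). Rxra was at -0.43 ± 0.14 (SE; adjusted p = 0.154). Ppargc1a, the coactivator PGC-1α that drives mitochondrial and fatty acid genes, was at 0.44 ± 0.12 (SE; adjusted p = 0.122), with all 3 knockouts above all 3 wild types. Of the PPAR genes themselves, Ppara was at -0.09 ± 0.10, Ppard at -0.16 ± 0.11 and Pparg at -0.28 ± 0.18 (SE; adjusted p = 0.714, 0.479 and 0.449), named after their values were seen.

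**Figure D3:**
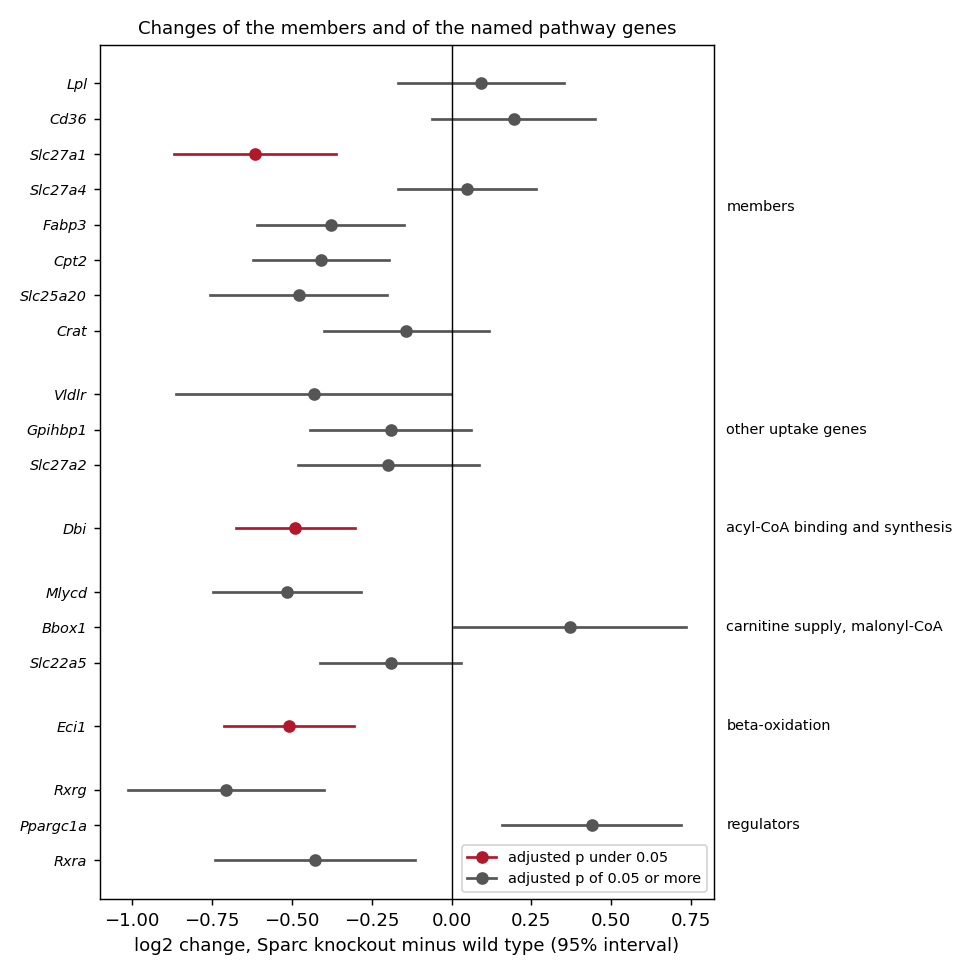
Log2 change, knockout minus wild type, of the 8 measured members (top block) and of the genes named from each pathway list, with 95% intervals from the limma fit (n = 3 arrays per genotype). Red marks an adjusted p under 0.05. Slc27a1, Dbi and Eci1 are red and all 3 lie below 0, while the intervals of Lpl, Cd36, Slc27a4 and Crat hold 0.

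Markers of cell types that use the same genes differed between the arrays. Over all genes tested, 50% had negative changes and 10.3% were lower at an unadjusted p under 0.05 by limma. Of 10 fast glycolytic fibre markers, all 10 had negative changes, 5 with such a p, and 0 were called by limma. Their median was -0.21, and their summed intensity ran from 54566 to 62126 in knockouts and from 65070 to 65647 in wild types. The smallest p-values were those of Gpd1, at -1.03 ± 0.20 (SE; adjusted p = 0.0573), and Mylk2, at -0.48 ± 0.15 (SE; adjusted p = 0.149). In knockout arrays 1, 2 and 3 the general muscle fibre list summed to 50026, 55374 and 55541. Its sums were 56044, 56130 and 55817 in wild type arrays 1, 2 and 3, so only knockout array 1 lay far below them. Of the 8 markers in that list, 6 were negative and 2 positive, with Ckm at -0.28 ± 0.08 and Ttn at 0.47 ± 0.15 (SE; limma adjusted p = 0.133 and 0.155).

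Slow oxidative fibre markers, which mark the fibres richest in Fabp3, split the knockout arrays. Over 11 markers the median difference from the wild type mean was -0.60, -0.85 and 0.43 in knockout arrays 1, 2 and 3, against 0.05, -0.09 and 0.05 in wild type arrays 1, 2 and 3. Of the 11 changes 8 were negative and 3 positive, with a median of -0.35. Their summed intensity ran from 12228 to 19708 in knockouts and from 15047 to 15581 in wild types. Only Myl3, a slow myosin light chain, was called among them, at -1.23 ± 0.18 (SE; limma adjusted p = 0.0256), and Mb, myoglobin, was at 0.17 ± 0.08 (SE; adjusted p = 0.306). The call of Myl3 was lost without knockout array 1 (adjusted p = 0.0513) and without wild type array 1, 2 or 3 (adjusted p = 0.156, 0.0971 and 0.147). Knockout array 3, the one with high slow markers by their median, had the lowest Slc25a20 value and the middle Fabp3 value of the knockouts. Myl3 read 8.43 in that array, against 9.25, 9.07 and 9.29 in wild type arrays 1, 2 and 3. Every other slow marker lay above all wild types there. Without knockout array 3 the changes were -0.64 in Slc27a1, -0.46 in Cpt2, -0.37 in Slc25a20 and -0.36 in Fabp3.

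Fat cells, capillary endothelium and macrophages also express Cd36 and Lpl. The 13 tested adipocyte markers summed to between 8175 and 11429 in knockouts and between 10000.1 and 13169 in wild types, with wild type array 1 lowest among the wild types. Car3, which muscle fibres also express, made up 64.8% to 75.2% of these sums. Without it the other 12 markers summed to 3130, 2835 and 2659 in knockout arrays 1, 2 and 3, against 2545, 4241 and 4465 in wild type arrays 1, 2 and 3, a split made after the values were seen. Fabp4, named after the values were seen, was the brightest of those 12 in every array. Knockout arrays 1, 2 and 3 read 10.87, 10.73 and 10.38 for it. Wild type arrays 1, 2 and 3 read 10.47, 10.80 and 10.76. Of all 13 markers, Car3 included, 0 were called by limma, 11 were negative and 2 positive. At an unadjusted p under 0.05 by limma, 2 were lower and 1 higher. Retn and Lep were at -1.44 ± 0.37 and -1.15 ± 0.37 (SE; limma adjusted p = 0.102 and 0.157). Without wild type array 1 the change of Slc27a1 was -0.70. The 12 endothelial markers had a median change of -0.01 and summed to between 3283 and 5103 in knockouts and between 4074 and 4409 in wild types. Among them 0 were called or had an unadjusted p under 0.05 by limma, and the smallest p-values were those of Gpihbp1, given above, and Egfl7, at 0.21 ± 0.13 (SE; adjusted p = 0.423).

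Over all genes tested, 8.16% were higher at an unadjusted p under 0.05 by limma. All 14 macrophage markers had positive changes, with a median of 0.66, 11 at such a p and 0 called by limma. They summed to between 3761 and 6931 in knockouts and between 2732 and 3055 in wild types, highest in knockout array 1, which also had the highest Cd36 value. Cd68 and Lyz2 were at 0.99 ± 0.23 and 0.85 ± 0.22 (SE; adjusted p = 0.0858 and 0.107). Without knockout array 1 the change of Cd36 was 0.09. All 12 fibroblast and tendon markers were positive too, with a median of 0.80, 7 at an unadjusted p under 0.05 and 0 called by limma. Their sums were 16700 to 24842 in knockouts and 14142 to 15680 in wild types. Thbs4 and Lum were at 1.15 ± 0.23 and 0.84 ± 0.27 (SE; limma adjusted p = 0.0593 and 0.156). The 5 tested nerve markers had a median of 0.00188 and sums of 1404 to 2351 in knockouts and 1404 to 1799 in wild types, with 0 called and 0 at an unadjusted p under 0.05 by limma; Pmp22 and S100b were at 0.31 ± 0.20 and 0.14 ± 0.10 (SE; adjusted p = 0.466 and 0.506). The part of any of these cell types in the changes of the fatty acid genes was not tested.

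**Figure D4:**
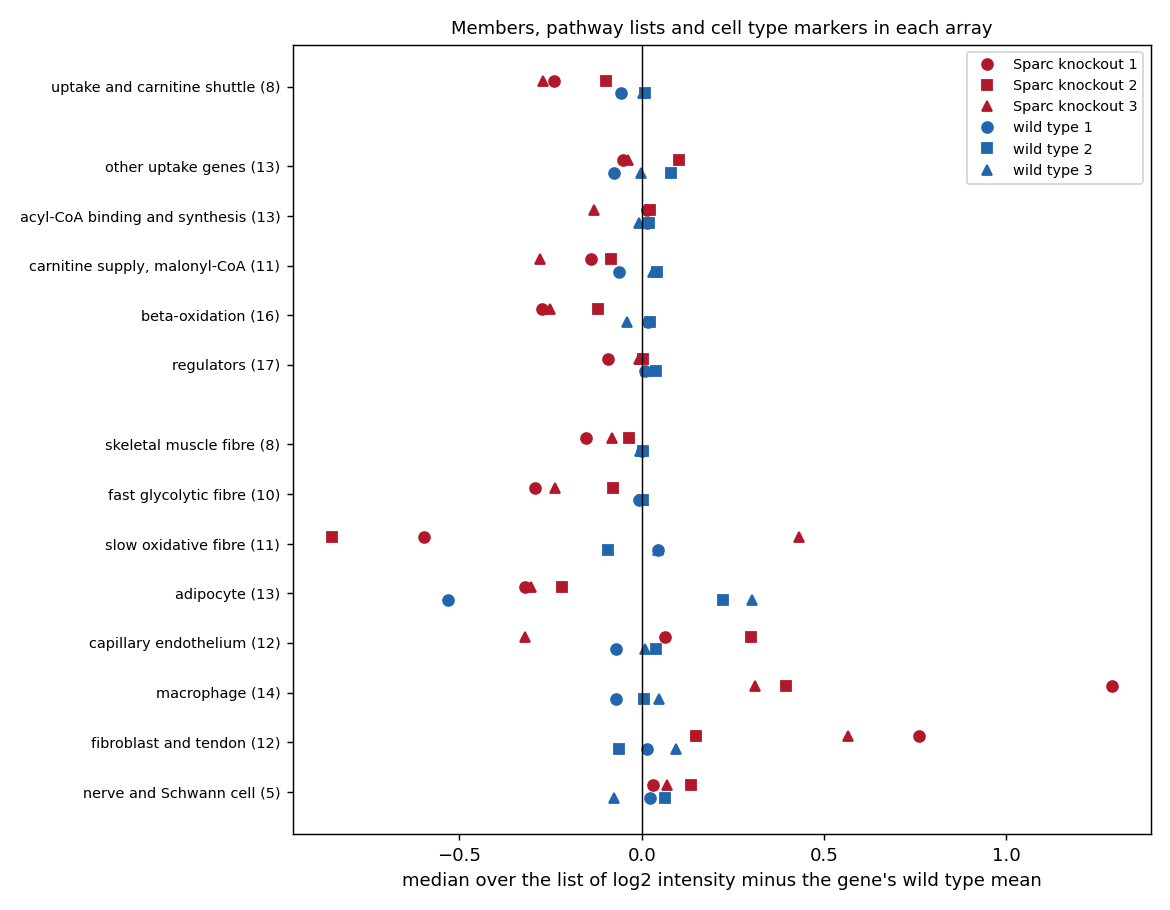
Median over each list of log2 intensity minus the gene's wild type mean, for every array (red knockout above, blue wild type below in each row; marker shapes give the array number, and numbers in brackets give the genes tested). The uptake and carnitine shuttle genes, the beta-oxidation enzymes and the fast fibre markers lie below the wild types in all 3 knockouts. So do the carnitine supply genes, the general muscle fibre markers and, by a small margin, the regulators. The macrophage and fibroblast markers lie above the wild types in all 3 knockouts, and the slow fibre markers lie on both sides.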

How the data were processed

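Gastrocnemius RNA of 3 Sparc knockout and 3 wild type samples was hybridised to Affymetrix arrays, 1 per sample. The deposited values are linear probe-set intensities that, per the submitters' processing notes, the authors summarised by RMA (Affymetrix Expression Console, version 1.3.0.187). They range from 1.59 to 13565.8 over 35556 probe sets, with array medians of 40.5 to 44.7 and no detection calls, so no fold change could be bounded by background, and precision is limited by the array number. For the probe sets, no genome build is named in the sources used. All 6 value columns were used.

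Log2 was taken with no offset, although the design had assumed log2 values. The platform annotation, which can be old, gave 21789 probe sets 1 gene symbol, 1621 several (not used) and 12146 none; 21698 of the first matched RefSeq by Entrez ID. A gene with several probe sets was represented by its brightest, judged on the mean of all 6 arrays. Genes with a mean log2 intensity in the lowest 25% of probe sets, under 3.90, were left out. The genotype difference was fitted in R 4.3.3 by limma 3.58.1 (lmFit, then eBayes with trend, two-sided tests, Benjamini-Hochberg over 16487 genes). SE is the moderated standard error, intervals are 95% intervals of the same fit, and SD is over arrays. The fit was tested on simulated normal data that gave both genotypes the same SD per gene. The larger SDs of the knockout arrays were therefore not part of that check.

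The members, gene lists and alternatives were chosen with earlier results of these data known. All members are named, from each pathway list those called or else the 3 with the smallest p, and from each marker list the 2 with the smallest p; others are said to be named after their values were seen. Alternatives were the normalization, the dim filter, the probe set summary, the log2 offset, the variance model, array weights, each array left out, and the replicate number as a block. Same-numbered arrays of the 2 genotypes did not deviate together (correlations of 0.0088, 0.082 and -0.020 over genes), and the labels give the numbers no meaning, so they were not taken as pairs.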

Additional observations from a re-analysis of the deposited data

How the results depend on the processing

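The result was compared under 16 alternatives. The median log2 change of the 8 genes stayed between -0.30 and -0.21 in all of them, and between -0.28 and -0.21 with 1 array left out. The number of the 8 genes called, 1 as reported, was 0 after median centring, without the variance trend, after quantile normalization of the values once more and with the replicate block, was 2 with array weights (Slc27a1 and Fabp3), and ran from 0 to 2 with 1 array left out, the 2 being Slc27a1 and Slc25a20 without knockout array 2. The number of genes called over all genes, 164 as reported, was 103 after median centring, 329 with array weights and 27 to 1017 with 1 array left out. It was 174, 1017 and 110 without knockout arrays 1, 2 and 3. Without wild type arrays 1, 2 and 3 it was 32, 30 and 27. Each of these fits had 1 array fewer, whichever genotype lost it. With the replicate block, Slc27a1 was at -0.62 with an adjusted p of 0.0613, Dbi and Eci1 lost their calls too, and 123 genes were called. Slc27a4 changed sign without wild type array 1, and with 1 array left out it ran from -0.0022 to 0.0945. No other gene named by the rule changed sign under any alternative in which it was tested. Over these genes and alternatives a call was lost 30 times, in Slc27a1, Dbi, Eci1 and Myl3, and gained 21 times, among them by Slc25a20, Vldlr, Mlycd, Rxrg and Rxra without knockout array 2. Apart from the construction of each alternative, the cause was not tested. No detection calls were used, so the signal over background of dim genes such as Bbox1 and Slc27a2 is not known.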

Other observations

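Some acyl-CoA genes outside the called set had 1 knockout array far from the other 2, and they are named here after their values were seen. Acot2, a mitochondrial acyl-CoA thioesterase, read 10.20, 10.21 and 9.28 in knockout arrays 1, 2 and 3, against 10.10, 10.49 and 10.48 in wild type arrays 1, 2 and 3, so that only knockout array 3 lay below the wild types. Acss1, the mitochondrial acetyl-CoA synthetase, had the same outlying array, at 8.30, 8.23 and 7.52 in knockouts against 8.22, 8.50 and 8.35 in wild types. Acsl5, an acyl-CoA synthetase, was highest in knockout array 1, at 7.23, 6.68 and 6.52 in knockouts against 6.59, 6.60 and 6.54 in wild types, with knockout array 2 also above them. None of these 3 was called by limma (adjusted p = 0.349, 0.404 and 0.516).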
